A study of Mus musculus with 24 samples.

Results

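H3K27ac ChIP-seq peaks were examined at the Cyp4a gene cluster of mouse chromosome 4, in liver of male and female mice of the inbred strains B6 (C57BL/6J) and CAST (CAST/EiJ), aged 8 weeks. H3K27ac, an acetylation of a lysine of histone H3, marks active promoters and enhancers. The cluster was defined by 6 genes, Cyp4a12a, Cyp4a12b, Cyp4a14, Cyp4a10, Cyp4a31 and Cyp4a32, of 22350 protein-coding genes annotated on the autosomes and chromosome X. A peak belonged to a gene if it overlapped the gene body plus 10 kb on each side by at least 1 bp in mm9. There were 4 peak lists, B6 male, B6 female, CAST male and CAST female, each called on reads merged from 5 livers against 1 input library. The mice carried no transgene or treatment named in the labels. The strain field of the labels went against the sample titles for the B6 female and CAST male samples, and the titles were followed. Because each group has 1 list, the comparisons have no replicate check, and no p-value or SD is given. The peak lists give no read counts, so the depth behind each peak is not given.

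Enzymes of the Cyp4a family are microsomal cytochrome P450s that hydroxylate fatty acids, including arachidonic acid, at or next to the terminal (omega) carbon. In liver they are known targets of the fatty acid receptor PPARα, encoded by Ppara, and several are sex-dependent under the control of growth hormone. Cyp4a12a, which makes the vasoactive eicosanoid 20-HETE, is known as a male-predominant gene of mouse liver, and Cyp4a14 as a female-predominant one. The genes arose by tandem duplication, and stretches of near-identical sequence limit where short reads can be placed.

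Across the 6 gene windows the lists held 9 peaks in B6 male, 11 in B6 female, 3 in CAST male and 15 in CAST female, of 79862, 82181, 90228 and 84645 peaks in the whole lists. Overlapping peaks of the 4 lists were merged into regions, giving 17 regions in the windows out of 119348 in the genome. Peaks stood at Cyp4a14, Cyp4a10, Cyp4a31 and Cyp4a32. No list had a peak in the windows of Cyp4a12a or Cyp4a12b. The bases covered by peaks leaned to females in CAST and, to a smaller extent, in B6, and a block of regions upstream of Cyp4a12a, outside its window, leaned to males in B6 and, by less than 1.5-fold in covered bases, in CAST. The B6 lean of the windows turned to males when windows of 50 kb took in this block.

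**Figure D1:**
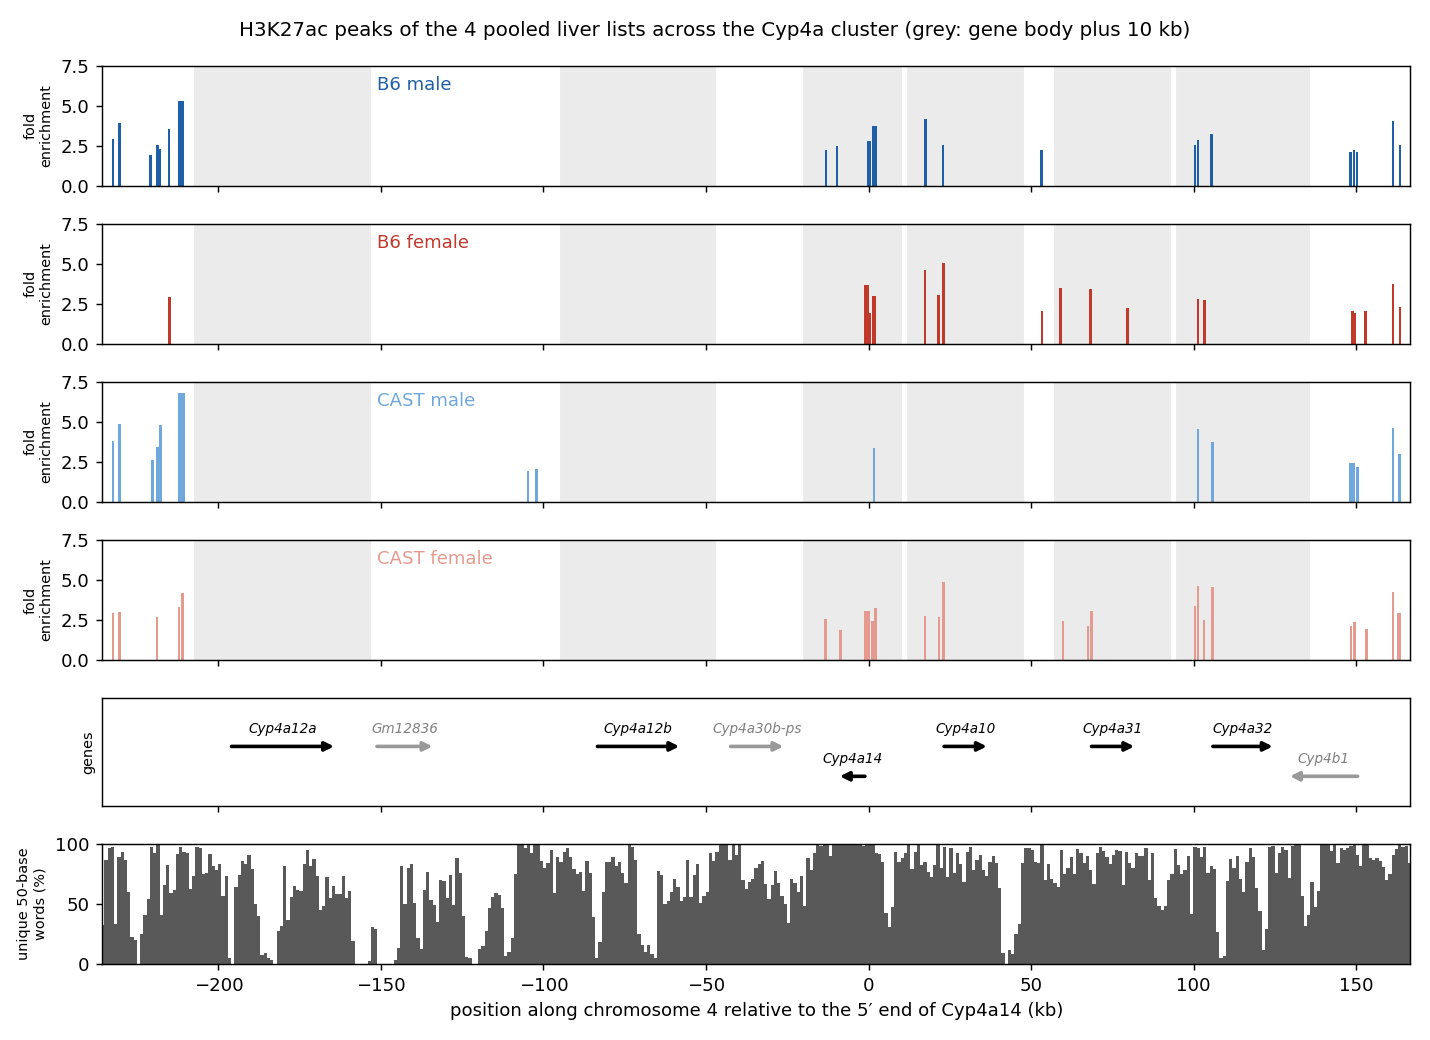
Peaks of each list along the cluster (bar position, kb from the 5′ end of Cyp4a14; bar height, fold enrichment over input; narrow bars are widened to be visible), with genes as arrows in their direction of transcription, grey bands for the gene windows, and the percent of 50-base words found once in the genome per kb in the lowest panel. Bars are absent from the bands of Cyp4a12a and Cyp4a12b in all 4 lists, and CAST male has 3 bars in the bands against 15 for CAST female.

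The sequences below carry the main patterns. The regions just inside Cyp4a10, Cyp4a31 and Cyp4a32 are copies of each other that differed in their peaks, so 300 bases around the summit at Cyp4a10 are shown with the aligned stretches of the other genes. They are on the plus strand of mm9, chr4:115191462-115191761, chr4:115236854-115237151 and chr4:115274113-115274412, and capitals mark bases of the Cyp4a31 and Cyp4a32 stretches that differ from, or are inserted against, the Cyp4a10 stretch.
Cyp4a10: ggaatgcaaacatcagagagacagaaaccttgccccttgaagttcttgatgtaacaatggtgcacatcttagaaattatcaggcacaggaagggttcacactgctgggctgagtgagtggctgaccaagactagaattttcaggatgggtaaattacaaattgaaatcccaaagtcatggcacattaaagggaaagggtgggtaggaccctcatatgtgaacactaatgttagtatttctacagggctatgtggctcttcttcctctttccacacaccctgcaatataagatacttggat
Cyp4a31: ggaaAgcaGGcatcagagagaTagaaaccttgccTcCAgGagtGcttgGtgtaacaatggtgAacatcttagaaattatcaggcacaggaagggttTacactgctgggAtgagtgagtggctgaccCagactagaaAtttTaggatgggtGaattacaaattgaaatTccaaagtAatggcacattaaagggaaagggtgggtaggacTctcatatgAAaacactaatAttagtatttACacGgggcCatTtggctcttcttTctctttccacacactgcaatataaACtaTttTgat
Cyp4a32: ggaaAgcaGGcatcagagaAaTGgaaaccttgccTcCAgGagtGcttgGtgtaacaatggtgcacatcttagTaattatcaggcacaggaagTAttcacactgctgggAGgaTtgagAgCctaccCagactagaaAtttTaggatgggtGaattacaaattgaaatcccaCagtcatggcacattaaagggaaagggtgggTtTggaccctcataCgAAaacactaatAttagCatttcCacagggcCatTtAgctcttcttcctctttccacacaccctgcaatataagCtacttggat

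Another 3 stretches of 300 bases, each centred on the summit of the highest-ranked B6 peak of its region, show the regions called in all 4 lists and the widest region of the male-leaning block. The region 0.92 kb upstream of Cyp4a14 (stretch chr4:115170523-115170822) and the region 3.09 kb upstream of Cyp4a32 (chr4:115270234-115270533) were called in all 4 lists. The region 13.3 kb upstream of Cyp4a12a (chr4:114957798-114958097) was called in every list except B6 female. Capitals mark a match of AGGTCA or of its reverse complement.
Cyp4a14 upstream: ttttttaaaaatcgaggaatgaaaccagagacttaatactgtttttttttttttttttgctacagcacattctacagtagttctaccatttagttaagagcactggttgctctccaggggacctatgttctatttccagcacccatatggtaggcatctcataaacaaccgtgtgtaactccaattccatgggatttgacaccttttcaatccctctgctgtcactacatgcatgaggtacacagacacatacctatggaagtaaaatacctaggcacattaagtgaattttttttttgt
Cyp4a32 upstream: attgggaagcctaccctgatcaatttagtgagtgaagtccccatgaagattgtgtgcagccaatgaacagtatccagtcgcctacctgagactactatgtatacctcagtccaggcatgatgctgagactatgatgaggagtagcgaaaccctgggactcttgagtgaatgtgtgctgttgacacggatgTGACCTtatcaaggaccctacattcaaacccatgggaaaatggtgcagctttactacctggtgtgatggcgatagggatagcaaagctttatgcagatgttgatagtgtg
Cyp4a12a upstream: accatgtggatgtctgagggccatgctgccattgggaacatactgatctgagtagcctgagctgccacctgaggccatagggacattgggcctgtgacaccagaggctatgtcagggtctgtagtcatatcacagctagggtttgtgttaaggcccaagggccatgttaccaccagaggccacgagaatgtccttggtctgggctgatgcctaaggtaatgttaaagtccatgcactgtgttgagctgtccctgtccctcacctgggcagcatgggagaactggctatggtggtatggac

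The sex comparison asks whether the marks around these genes differ between male and female liver within a strain. In CAST, peaks covered 2053 bp of the 6 windows in males and 8955 bp in females, 4.36-fold more in females. In B6 they covered 5689 bp in males and 7138 bp in females, 1.25-fold more in females. With windows of 50 kb, an alternative chosen after seeing the data, the log2 ratio of male over female was 0.51 in B6, toward males, and -0.63 in CAST, and with gene bodies alone it was -1.03 in B6. With the 10 kb windows it was -2.12 in CAST and -0.33 in B6, whereas the median over genes with peaks in both sexes was 0.11 in CAST (16108 genes) and 0.04 in B6 (15836 genes). In bulk liver, a mark on fewer cells and a weaker mark in each cell cannot be told apart.

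Counted by gene with a 1.5-fold threshold in covered bases, 4 of the 4 members with peaks in CAST were higher in females and 0 in males. Over all genes with a peak in CAST, 3.66% were higher in females and 10.7% in males by that threshold. In B6, 2 of 4 members were higher in females and 0 in males, against 6.1% and 7.26% of all genes. Cyp4a10 and Cyp4a31 were higher in females in both strains, as were 1.04% of the genes covered in both. These counts depended on the window. With gene bodies alone, 3 of 4 members in CAST were higher in females, Cyp4a32 being below the threshold at a log2 ratio of -0.31, and 3 of 4 were in B6, where Cyp4a14 passed it at -0.97 and Cyp4a32 was higher in males. Cyp4a32 was higher in males in B6 at 0.82 also when peaks up to 500 bp apart were joined. With windows of 50 kb on each side, chosen after seeing the data, Cyp4a10 in B6 was below the threshold at -0.55. That left Cyp4a31 as the member higher in females in both strains. The windows of Cyp4a12a and Cyp4a12b were higher in males in B6. Such windows take in regions of neighbouring members, so these values are not of single genes. In B6 the Cyp4a12b window held only the peaks past the 3′ end and over the 3′ UTR of Cyp4a14, called in males.

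Of the 17 regions, 14 were called in B6, of which 5 were in both sexes, 4 in males only and 5 in females only. Over all B6 regions, males alone held 17.4% and females alone 17.5%. In CAST 14 regions were called, of which 3 were in both sexes, 0 in males only and 11 in females only. Over all CAST regions, males alone held 21.5% and females alone 14.1%. With gene bodies alone, females alone held 5 regions in CAST and 2 in B6, and males alone 2 in B6. When shared regions had to overlap by 50% of both peaks, females alone held 8 in B6 and 13 in CAST, and males alone 6 in B6 and 1 in CAST. The shares over all regions above were computed for any overlap and for all regions, not for these alternatives. No region was male-only in both strains, and 3 were female-only in both. The share of all regions called in 1 sex only in both strains was not computed, so these counts describe the windows alone.

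**Figure D2:**
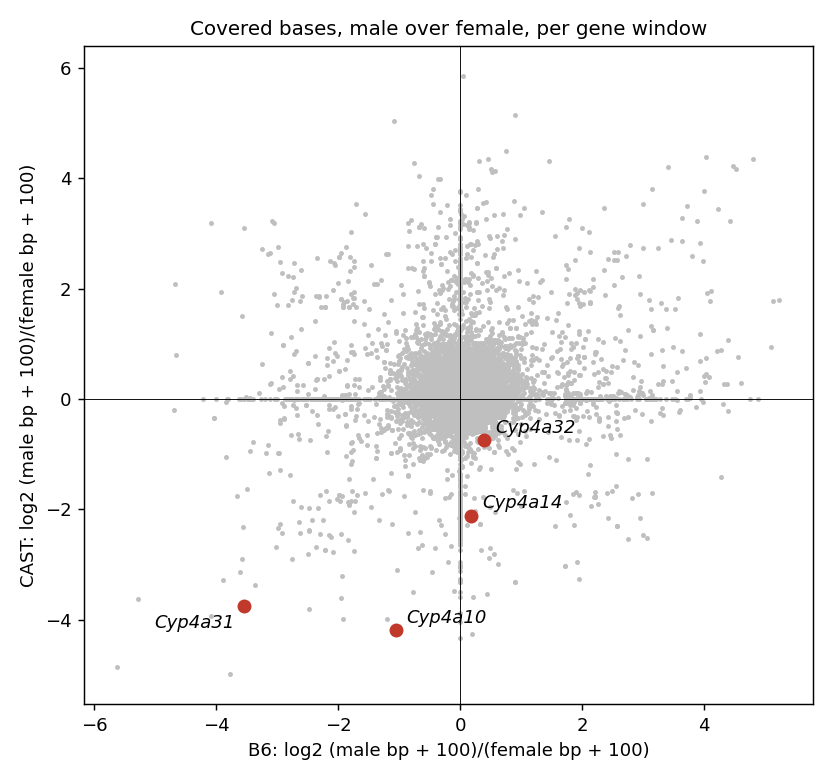
Log2 ratio of male to female covered bases of each gene window, with 100 bp added to both, in B6 (horizontal) and CAST (vertical); grey points are the protein-coding genes with a peak in any list and red points the 4 members with peaks. The 4 members lie below 0 on the CAST axis, and Cyp4a31 and Cyp4a10 also lie left of 0 on the B6 axis.

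Cyp4a14, a fatty acid omega-hydroxylase gene on the minus strand (chr4:115158805-115168747), had the most covered bases of the members in every list except CAST male. Its window held 4 peaks over 3427 bp in B6 male, 3 over 3010 bp in B6 female, 1 over 812 bp in CAST male and 5 over 3850 bp in CAST female. The B6 lists were within 1.14-fold of each other, with females higher (log2 ratio -0.97) in the gene body alone, and CAST male was the low list, 4.74-fold below CAST female. A lower log2 male-to-female ratio than that of Cyp4a14 in CAST was seen for 0.0435% of 16108 genes with peaks in both CAST lists.

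The region over the 5′ end of Cyp4a14 (chr4:115167288-115169383) overlaps coding exon and UTR sequence. It was called with a fold enrichment of 2.82 over 1076 bp in B6 male, 3.69 over 1774 bp in B6 female and 3.07 over 1864 bp in CAST female. CAST male had no peak there. The adjoining intergenic region (chr4:115169667-115171234) was called in every list, with 3.73 in B6 male, 2.996 in B6 female, 3.35 in CAST male and 3.28 in CAST female. There the lists differed more in width than in height, with 1506, 1236, 812 and 1305 bp.

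The other 3 regions of Cyp4a14 were narrow. The one past its 3′ end (chr4:115155333-115155946) was called in B6 male at 2.22 and in CAST female at 2.55, the lists of opposite sexes in the strains. A 303 bp region over the 3′ UTR (chr4:115158879-115159181) was called in B6 male at 2.48. An intronic region of 265 bp (chr4:115160063-115160327) was called in CAST female at 1.87.

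Cyp4a10, a gene whose product hydroxylates fatty acids such as lauric acid and which is widely used as a PPARα target, lies on the plus strand (chr4:115190869-115206254). Its window held 2 peaks over 959 bp in B6 male, 3 over 2099 bp in B6 female, 0 in CAST male and 3 over 1720 bp in CAST female. Covered bases were 2.19-fold higher in B6 females than in B6 males, a log2 male-to-female ratio of -1.13 that became -2.12 with peaks of unique sequence only. No fold is given for CAST, where the male list is at 0.

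The region of Cyp4a10 with the highest fold enrichment in both female lists began 0.563 kb inside the gene and overlaps a coding exon (chr4:115191432-115192242). Its fold enrichment was 5.08 over 811 bp in B6 female and 4.88 over 639 bp in CAST female, the highest values of the 6 windows in those lists. In B6 male it was 2.58 over 308 bp, and CAST male had no peak. These peaks ranked above 79.1%, 76.8% and 35.0% of their lists in B6 female, CAST female and B6 male.

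A region 0.224 kb upstream of Cyp4a10 (chr4:115190066-115190645) was female-only in both strains, at 3.08 in B6 and 2.69 in CAST. An intergenic region 4.33 kb upstream (chr4:115185783-115186543) was called at 4.18 in B6 male, 4.62 in B6 female and 2.75 in CAST female. The B6 lists were alike at this region, and CAST male again had no peak.

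Cyp4a31 (chr4:115236254-115251618, plus strand), a further Cyp4a copy, had peaks in the female lists. There were 3 peaks over 1062 bp in B6 female and 3 over 1246 bp in CAST female, and 0 in either male list. The lists shared 1 of its 5 regions, an intronic region 0.724 kb inside the gene (chr4:115236978-115237533), called at 3.45 over 228 bp in B6 female and 3.09 over 530 bp in CAST female. Of the words in this region 66.7% were unique in the genome, the lowest value of the 17 regions.

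The remaining regions of Cyp4a31 were each called in 1 list. B6 female had peaks 8.21 kb upstream at 3.50 and in an intron 12.02 kb inside the gene at 2.23. CAST female had peaks 7.49 kb upstream at 2.47 and over the 5′ end (chr4:115236125-115236437) at 2.13.

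Cyp4a32 (chr4:115273574-115294207, plus strand), the last copy of the array, differed from its neighbours. Its window held 3 peaks over 1303 bp in B6 male, 2 over 967 bp in B6 female, 2 over 1241 bp in CAST male and 4 over 2139 bp in CAST female. Covered bases were thus 1.35-fold higher in males in B6 and 1.72-fold higher in females in CAST. It had the most covered bases of the members in CAST male.

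At the region 3.09 kb upstream of Cyp4a32 (chr4:115269763-115270480) the sexes were close. Fold enrichment was 2.84 in B6 male and 2.79 in B6 female, and 4.58 in CAST male and 4.60 in CAST female. The CAST values stood above the B6 values, and the widths ran from 593 to 680 bp. Inside the gene, a region overlapping a coding exon 0.524 kb from the 5′ end (chr4:115274098-115274898) was called at 3.25 in B6 male, 3.73 in CAST male and 4.54 in CAST female, with no peak in B6 female.

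A region 1.31 kb upstream of Cyp4a32 (chr4:115271851-115272262) was female-only in both strains, at 2.74 in B6 and 2.53 in CAST. A region 4.16 kb upstream (chr4:115269055-115269417) was called in B6 male at 2.53 and in CAST female at 3.37, with no peak in the other lists.

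**Figure D3:**
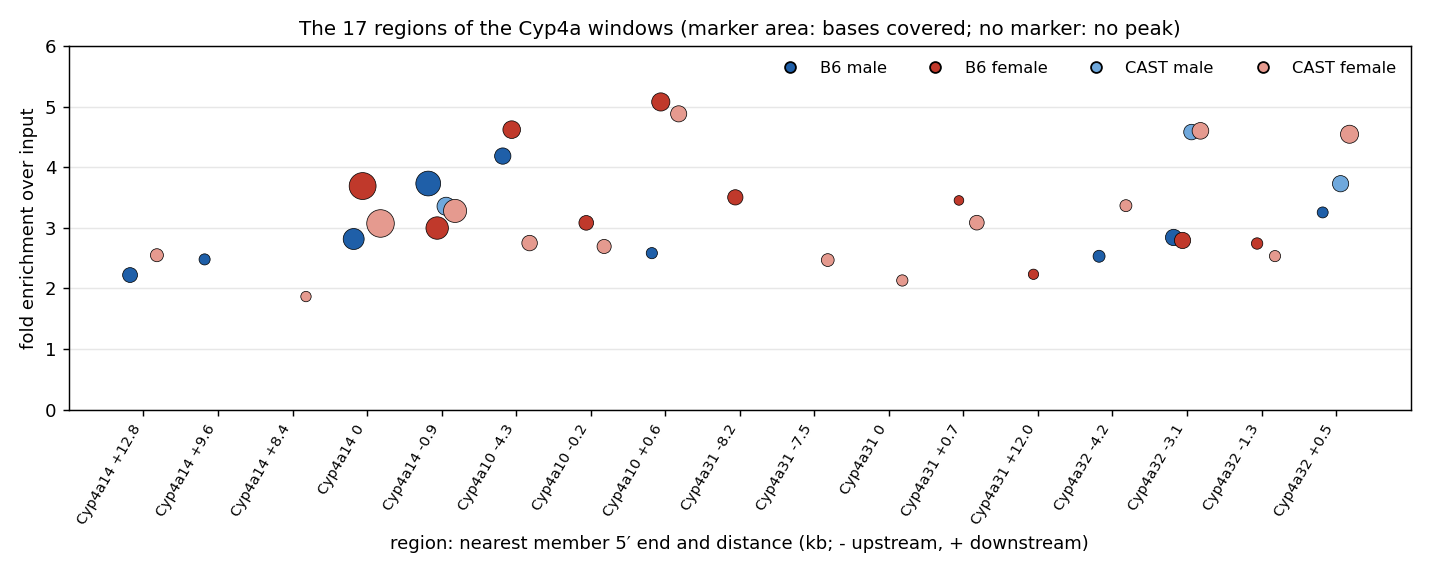
Fold enrichment over input (vertical) of each of the 17 regions of the windows, named by the nearest member 5′ end and the distance in kb; marker area is the number of bases covered and a missing marker means no peak in that list. CAST male markers are present at 3 of the 17 regions, and the highest markers are those of the female lists 0.563 kb inside Cyp4a10.

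**Figure D4:**
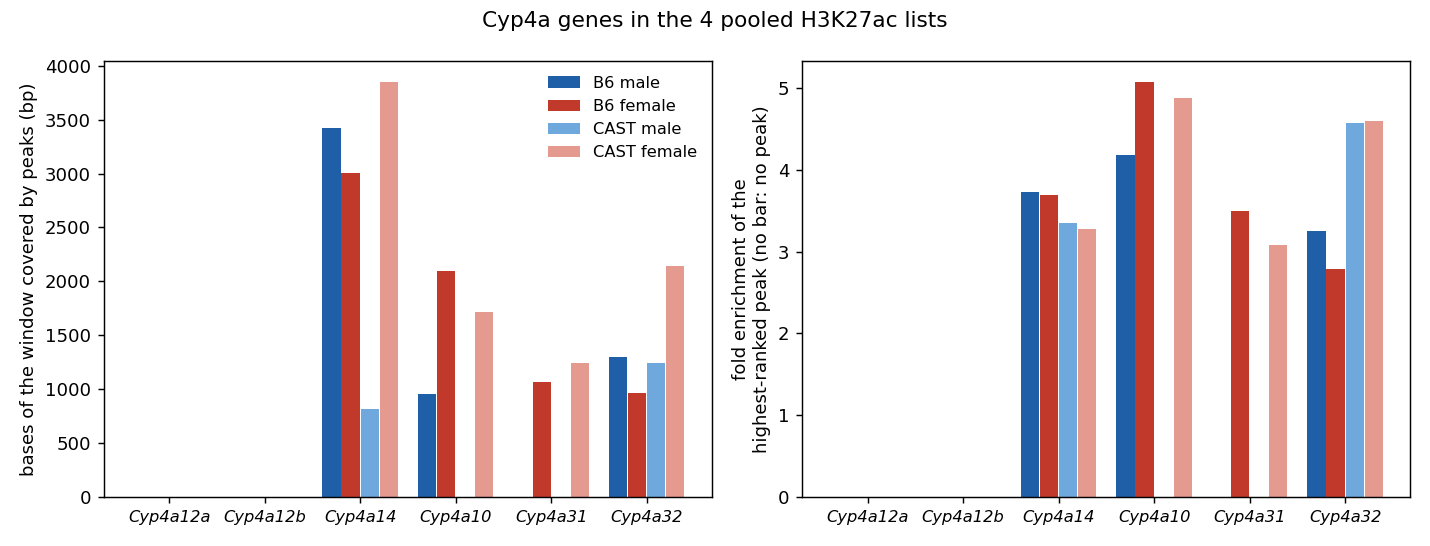
Bases of each gene window covered by peaks (left, bp) and fold enrichment of the highest-ranked peak (right) in the 4 lists. Bars for Cyp4a31 are present in the female lists, at 1062 and 1246 bp, and no list has a bar for Cyp4a12a or Cyp4a12b.

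Read across the strains, male covered bases of the 6 windows were 2.77-fold higher in B6 than in CAST, whereas female covered bases were 1.25-fold higher in CAST than in B6. Over the joined windows of 50 kb the male fold was 1.36 toward B6 and the female fold 1.63 toward CAST. The median gene had 1.01 times as many covered bases in CAST as in B6 in males and 0.968 times in females. For Cyp4a14 the male value was 4.22-fold higher in B6. For Cyp4a32 the male values were within 1.05-fold, and the female value was 2.21-fold higher in CAST. CAST reads were placed on a strain genome not used here, so placement and strain cannot be told apart.

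Several regions sit in matching sequence of the tandem copies, at like or unlike distances from the 5′ ends. A 300-base stretch of each region was aligned to the other member windows. Of 17 regions, 13 had a match of at least 150 aligned columns, with 69.6% to 92.8% identity, giving 31 matched stretches. Of these stretches, 17 had no peak in any list. They include 4 in the Cyp4a12a and Cyp4a12b windows, where 0% of the 50-base words were unique. The others without a peak had 47.1% to 100% unique words.

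The Cyp4a10 stretch printed above, which starts 593 bp inside the gene, matched Cyp4a31 at 600 bp with 88.3% identity and Cyp4a32 at 539 bp with 87.4% identity. Both matches overlapped called regions. At Cyp4a10 and Cyp4a31 the female list had the higher fold enrichment, or the only peak, in both strains. At Cyp4a32 B6 male had a peak and B6 female none, and CAST female was above CAST male. All words in the 3 stretches were unique in mm9.

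The region upstream of Cyp4a10 at 4.33 kb also had counterparts. Its stretch, which starts 4702 bp upstream, matched Cyp4a31 with 88.6% identity 8491 bp upstream, overlapping the region called in B6 female. It matched Cyp4a32 with 86.8% identity 4573 bp upstream, overlapping the region called in B6 male and CAST female. In contrast, the stretch of the Cyp4a32 region called in all 4 lists matched Cyp4a10 with 90.9% identity 3262 bp upstream and Cyp4a31 with 89.3% identity 7010 bp upstream. Neither match had a peak in any list. Of their words 92.7% and 92.6% were unique, and the cause of the difference was not tested.

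The Cyp4a12 genes encode near-identical arachidonic acid omega-hydroxylases, and their windows had no peak in any list. Cyp4a12a lies at chr4:114971651-115005420 and Cyp4a12b at chr4:115084229-115111639, both on the plus strand. Over all protein-coding genes, 23.5% had no peak in any list. Of the 1381 genes with a window no more unique than that of Cyp4a12b, 90.5% had none. How many of those genes are active in liver was not examined.

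Uniqueness was measured as the percent of 50-base words, the read length, that occur once in mm9. It was 53.2% in the window of Cyp4a12a and 63.6% in that of Cyp4a12b. It was 88.9% for Cyp4a14, 72.7% for Cyp4a10, 80.6% for Cyp4a31 and 72.5% for Cyp4a32. The median over all genes was 95.9%. Thus 5.02% of genes had a less unique window than Cyp4a12a and 6.17% than Cyp4a12b. Of the Cyp4a12a words, 18.4% recurred in the Cyp4a12b window.

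Within 1 kb of the 5′ ends, 40.2% of 50-base words were unique for Cyp4a12a and 39.6% for Cyp4a12b, against 100% for Cyp4a14. With 200-base words, the mean insert length, the values were 63.3%, 62.0% and 100%. Stretches of 217 aligned columns in Cyp4a12a and Cyp4a12b that matched the Cyp4a14 5′ region began 124 bp inside Cyp4a12a and at the same part of Cyp4a12b, and 0% of their 50-base words were unique. How much the lack of peaks rests on read placement was not tested.

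**Figure D5:**
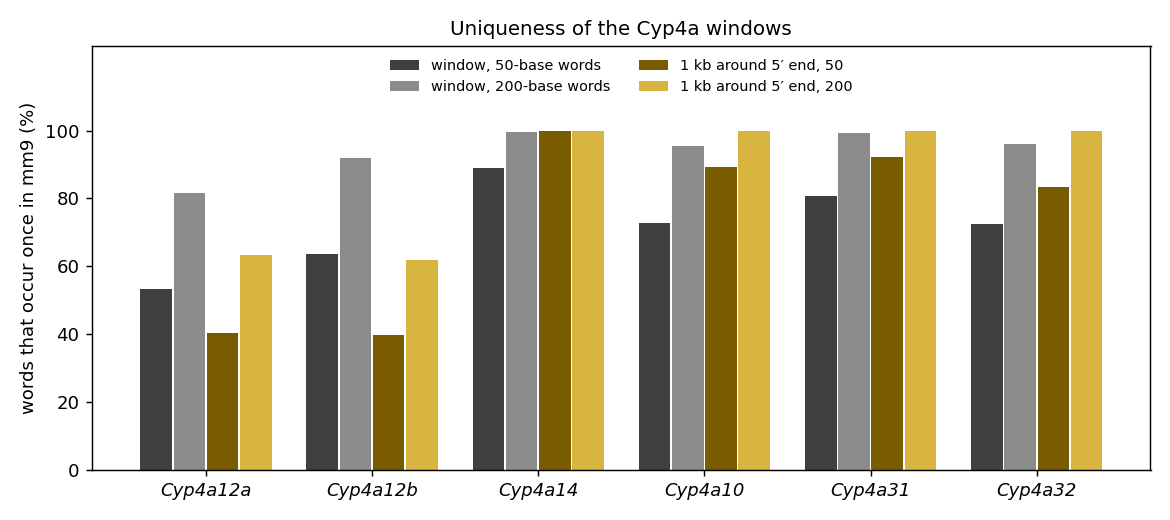
Percent of 50-base and 200-base words that occur once in mm9 (vertical) in the whole window and within 1 kb of the 5′ end of each member. Cyp4a12a and Cyp4a12b have the lowest bars, 40.2% and 39.6% for 50-base words at the 5′ end.

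The nearest peaks to Cyp4a12a formed a block of 8 intergenic regions 13.3 to 34.9 kb upstream of its 5′ end, described here because of its position although it falls outside the window and was noticed after the values were seen. It held 7 peaks over 5122 bp in B6 male, 1 over 236 bp in B6 female, 6 over 4588 bp in CAST male and 5 over 3103 bp in CAST female. Of the 7 regions called in B6, 6 were male-only and 0 female-only, against 17.4% male-only over all B6 regions. Of the 6 called in CAST, 4 were in both sexes, each with the higher fold enrichment in males, and 2 were male-only, against 21.5% over all CAST regions.

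The region nearest to Cyp4a12a (chr4:114956188-114958360) had a fold enrichment of 5.28 over 2084 bp in B6 male, 6.78 over 2135 bp in CAST male and 4.21 over 1693 bp in CAST female. B6 female had no peak there, and 97.1% of its words were unique. The values of both male lists exceeded the highest fold enrichment of their own member windows, 4.18 in B6 and 4.58 in CAST. A further region 33.1 kb upstream (chr4:114937970-114938552) was called at 3.93 in B6 male, 4.85 in CAST male and 2.97 in CAST female.

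Downstream of this block no list had a peak until 105 kb further on in CAST male and 197 to 214 kb in the other lists. The CAST male peaks that end this stretch, 20.04 and 17.46 kb upstream of Cyp4a12b, had fold enrichments of 1.92 and 2.08. Among peaks within 50 kb of the cluster, 0 peak numbers were missing from any list.

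Sequence motifs were searched on both strands in 300 bases of every region. The motifs were DR1, a direct repeat of AGGTCA spaced by 1 base that PPARα and RXRα bind, its unit AGGTCA, which DR1 contains, CAAAGTCCA of HNF4α, and TTCNNNGAA of STAT factors. DR1 was in 0 of the 17 stretches and in 0.0855% of those of all regions. AGGTCA was in 3 (17.6%) against 20.2%, CAAAGTCCA in 0 against 0.587%, and TTCNNNGAA in 2 (11.8%) against 8.9%. The TTCNNNGAA matches were in the stretches around the Cyp4a32 region 1.31 kb upstream and the Cyp4a31 region 12.02 kb inside the gene.

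Of 16 other Cyp4 genes, most of which encode fatty acid hydroxylases, 11 were matched in the annotation. In B6 3 were higher in males, 0 in females and 8 in neither by the 1.5-fold threshold, and in CAST 1, 1 and 9. Over all genes these shares were 7.26% and 6.1% in B6 and 10.7% and 3.66% in CAST. Cyp4x1 had a log2 male-to-female ratio of covered bases of 1.16 in B6 and -0.71 in CAST. Cyp4b1, whose 3′ end lies in the Cyp4a32 window, had 0.82 and 0.02. Cyp4f18 had 0.70 and 0.64.

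Of 15 partners and regulators of omega-oxidation, 14 were matched. They included Por, the reductase that supplies electrons to P450s, and Ppara. In B6 0 were higher in males and 0 in females, 13 in neither and 1 had no peak. In CAST 1 was higher in males, 1 in females and 12 in neither, beside the same shares over all genes (7.26% and 6.1% in B6, 10.7% and 3.66% in CAST). The log2 male-to-female ratio of Aldh3a1, a fatty aldehyde dehydrogenase gene, was -1.54 in CAST. That of Adh4, an alcohol dehydrogenase gene, was 0.73 in CAST and 0.01 in B6.

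Likeness to genes outside the cluster was measured by the Euclidean distance of log2(covered bases + 100) over the 4 lists. The closest to Cyp4a14 were Mki67 (0.905) and Siva1 (0.906). The closest to Cyp4a10 were Ebf3 (0.932) and Olig2 (0.980). Frmd7 (0.412) and A1bg (0.574), a plasma glycoprotein gene, were closest to Cyp4a31, and Rin1 (0.269) and Thumpd2 (0.35) to Cyp4a32. A1bg was at 0 in both male lists, with 1595 bp in B6 female and 1425 bp in CAST female.

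As a check of the labels, peaks on chromosome Y numbered 39 in B6 male and 0 in each of the other lists, CAST male included, so that they do not check the sex label of the CAST male list. Of the marker genes, 5 of 6 hepatocyte markers had peaks in every list and 0 of 3 genes of other organs did. The exception, Serpina1a, had no peak in any list in a window of which 50.6% was unique. Markers of other liver cells with peaks in every list were 1 of 4 of Kupffer cells, 4 of 4 of endothelium, 1 of 4 of stellate cells, 2 of 3 of bile duct and 1 of 3 of lymphocytes. Of all 22350 genes, 15836 had peaks in both B6 lists and 16108 in both CAST lists. The share with peaks in every list is not given, and these marker counts identify no cell type. The Kupffer cell marker Clec4f was higher in females in both strains, with 0 bp in B6 male, 690 in B6 female, 217 in CAST male and 525 in CAST female, whereas Cd68 differed little between the sexes, with 4670 and 4578 bp in B6 male and female and 3855 and 3895 bp in CAST male and female, and Marco and Vsig4 were at 0 in every list. The part of these cells in the results was not tested. The genes listed for their sex bias were chosen with results of these data known and are no independent check. Of 3 listed as female-biased (Cux2, Trim24 and Nt5e), 2 (Cux2 and Trim24) had covered bases at least 1.5-fold higher in females in both strains. That share was 1.04% of the genes covered in both. The authors report that Trim24 expression is female-biased in B6 but not in CAST. Its log2 male-to-female ratio of covered bases in CAST was -0.90, so mark and expression differ there. Of 3 listed as male-biased (Moxd1, Elovl3 and C6), 2 were higher in males in B6 and 3 in CAST, beside 7.26% and 10.7% of all genes.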

How the data were processed

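H3K27ac ChIP-seq libraries of 20 livers and 4 inputs were prepared by the authors, who mapped uniquely placed reads with Bowtie2, B6 to mm9 and CAST to a genome rebuilt from mm9, converted CAST positions back to mm9, merged the 5 livers of each group, called peaks with MACS2 against input and removed blacklisted and duplicate-only regions. The authors deposited, per peak, a score, a fold enrichment (a ratio to input), a −log10 p-value (not used), a −log10 q-value (lowest value 1.30) and a summit offset. Offsets of CAST lists were not used. Peaks were ranked by q-value, ties by fold enrichment.

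Python 3 scripts (numpy, pandas, numba, Biopython, matplotlib) computed covered bases, union regions and uniqueness with exact word matches on both strands of the NCBIM37 (mm9) sequence, and were tested on simulated data. Genes came from GENCODE vM1. A member was counted as higher in a sex from 1.5-fold in covered bases, a list at 0 included. Alignments scored 2 per match, -3 per mismatch, -5 to open and -2 to extend a gap. Named were the 6 genes, their 5′-end regions, the 3 highest-ranked regions of each list and regions called in 1 sex only in both strains. At most 5 genes were named from each of the lists of other Cyp4 genes and of omega-oxidation partners. Marker genes, genes listed for sex bias and the most alike genes were named besides. Remaining regions were described after their values were seen. The RefSeq promoter table (GRCm38.p6) held 1 of the 6 members, Cyp4a32. Members and lists were chosen with earlier results of these data known. Alternatives changed windows, q-value, list length, overlap, joining, uniqueness and scaling.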

Additional observations from a re-analysis of the deposited data

Results flagged for a closer look

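Cyp4a14 and Cyp4a32 leaned to opposite sexes in the strains. For Cyp4a14 the log2 ratio of male to female covered bases was 0.19 in B6 and -2.25 in CAST. For Cyp4a32 it was 0.43 in B6 and -0.79 in CAST. The B6 values are below the 1.5-fold threshold. The value of Cyp4a14 turned to females with the gene body alone (-0.97) and with peaks of −log10 q-value of at least 5 (-0.06). With windows of 50 kb, which take in the regions of Cyp4a10, it was -0.22. With 1 pooled list per group these differences were not tested.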

How the results depend on the processing

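With gene bodies alone, the log2 ratio over the windows was -1.03 in B6, 2 regions each were called in males alone and in females alone in B6, and 5 in females alone in CAST. With shared regions required to overlap by at least 50% of both peaks, females alone had 8 in B6 and 13 in CAST, and males alone had 6 in B6 and 1 in CAST. Shares over all regions were not computed under these alternatives. Windows of 50 kb, chosen after seeing the data and taking in the block upstream of Cyp4a12a and the Cyp4b1 start, gave 0.51 in B6, the opposite direction, and -0.63 in CAST. The other alternatives for these results kept the direction and stayed within 1.5-fold. For single genes, the covered-base ratio moved by over 1.5-fold for Cyp4a14 in B6 (-0.97, gene body alone) and Cyp4a10 in B6 (-2.12, peaks of unique sequence only), 2 of 43 values, and the highest fold enrichment for 3 of 89. No paired analysis was possible because each group has 1 pooled list. The peak lists give no read depth, and per-library depth was not used here, so a missing peak is not absence of the mark.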
